A study of Homo sapiens with 18 samples.

Results

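NF-κB signalling was followed here through 10 of its own genes, which code for its subunits (NFKB1, NFKB2, REL, RELA and RELB), its inhibitors (NFKBIA, NFKBIB and NFKBIE) and feedback regulators of the pathway (TNFAIP3 and BIRC3). The members were the non-control spots that carry 1 of these names on the array, and all 10 were found among 36204 gene names. They were measured by 12 probes, because RELA and NFKBIB had more than 1 probe each. Expression was read on 18 one-colour Agilent arrays, which hold 6 groups of 3 biological replicates.

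The parental line HT29, from a human colorectal cancer, is sensitive to oxaliplatin (OXA), and HTOXAR3 is a subline derived from it that acquired resistance to the drug. Both were grown as monolayers and were left untreated or received OXA or OXA plus Curcumin for 24 h. The dose of OXA was 10 µM in HT29 and 30 µM in HTOXAR3. That of Curcumin was 10 µM in either line. The resistant state was thus represented by a single subline, and the effect of the line after treatment cannot be told apart from that of the dose of OXA. Cells given Curcumin alone were not analysed here.

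NF-κB is a family of dimeric transcription factors that inhibitor proteins of the IκB family hold in the cytoplasm. Kinases of the IKK complex mark these inhibitors for degradation, which releases dimers such as that of RELA with the processed product of NFKB1, whereas the non-canonical branch runs through the kinase MAP3K14, the processing of NFKB2 and the partner RELB. Several of these genes, NFKBIA and NFKBIE among them, are known NF-κB targets themselves, and the pathway is studied in colorectal cancer for its part in inflammation and cell survival. An array measures transcript levels, not the processing, location or binding of these proteins.

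The labelled tissue was checked against marker genes. Of 9 markers of colon epithelium, 8 were well above background on all 18 arrays, among them EPCAM, KRT8, VIL1 and CDX1, with KRT18 the brightest of the list, and the other marker, CEACAM5, on 16 arrays. No marker of fibroblasts out of 6 was well above background on all arrays, and COL1A2 and COL3A1 were not on any. Of 6 leukocyte markers on the array, 5 passed this limit on every array, with CD14 between 10.19 and 11.52 in log2 intensity and PTPRC between 5.96 and 6.51. In endothelium, CDH5 and VWF passed on all arrays, and PECAM1 and KDR on 4 and 1. On each array between 52.4% and 63.6% of spots passed, so that passing does not show a high level. CD14, however, was brighter than the epithelial marker CDX1 (8.97 to 9.37), so passing does not separate the tissues here.

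Sequences upstream of the transcription starts are shown for BIRC3, TNFAIP3, NFKB1, NFKBIA and NFKB2, which were called in several comparisons below, and for REL, which was not called in any with limma. They show which of these stretches hold matches to the κB consensus, the known binding motif of NF-κB. That of NFKB2, at the first of its listed starts, holds none. They come from the RefSeq promoter table on GRCh38.p14, which held 13 windows for 8 members. RELB and NFKBIE had no entry. A window covers 300 bases, of which the 250 before the start are printed, 5′ to 3′ on the strand of the gene. Capitals mark the matches to the consensus on either strand, and overlapping matches run together. The coordinates are chr11:102317234-102317483 for BIRC3, chr6:137867009-137867258 for TNFAIP3, chr4:102501109-102501358 for the first start of NFKB1, chr10:102393860-102394109 for that of NFKB2 and chr2:60881324-60881573 for REL, all on the plus strand, and chr14:35404750-35404999 on the minus strand for NFKBIA.
BIRC3: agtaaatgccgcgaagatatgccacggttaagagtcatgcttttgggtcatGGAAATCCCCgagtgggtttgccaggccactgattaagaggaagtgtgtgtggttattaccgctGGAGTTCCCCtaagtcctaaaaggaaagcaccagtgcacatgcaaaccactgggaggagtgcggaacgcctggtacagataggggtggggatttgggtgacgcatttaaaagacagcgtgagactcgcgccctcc
TNFAIP3: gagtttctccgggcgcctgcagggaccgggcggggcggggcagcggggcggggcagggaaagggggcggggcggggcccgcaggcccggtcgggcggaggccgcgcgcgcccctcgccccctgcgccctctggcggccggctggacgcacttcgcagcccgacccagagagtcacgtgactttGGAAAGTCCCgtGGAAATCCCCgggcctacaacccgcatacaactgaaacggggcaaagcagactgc
NFKB1: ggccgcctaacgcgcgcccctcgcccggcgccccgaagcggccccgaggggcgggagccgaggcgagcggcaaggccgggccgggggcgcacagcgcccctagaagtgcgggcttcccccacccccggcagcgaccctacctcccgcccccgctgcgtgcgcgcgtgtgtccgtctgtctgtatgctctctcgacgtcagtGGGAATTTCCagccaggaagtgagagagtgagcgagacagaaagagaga
NFKBIA: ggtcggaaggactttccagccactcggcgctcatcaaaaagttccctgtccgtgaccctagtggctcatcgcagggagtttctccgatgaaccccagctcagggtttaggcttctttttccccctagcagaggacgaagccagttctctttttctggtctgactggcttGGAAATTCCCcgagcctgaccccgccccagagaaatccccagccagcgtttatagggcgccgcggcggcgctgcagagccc
NFKB2: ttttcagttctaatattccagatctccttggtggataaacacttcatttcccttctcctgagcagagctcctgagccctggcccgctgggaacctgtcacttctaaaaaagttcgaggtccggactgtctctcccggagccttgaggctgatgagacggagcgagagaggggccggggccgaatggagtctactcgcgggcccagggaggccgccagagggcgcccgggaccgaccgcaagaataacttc
REL: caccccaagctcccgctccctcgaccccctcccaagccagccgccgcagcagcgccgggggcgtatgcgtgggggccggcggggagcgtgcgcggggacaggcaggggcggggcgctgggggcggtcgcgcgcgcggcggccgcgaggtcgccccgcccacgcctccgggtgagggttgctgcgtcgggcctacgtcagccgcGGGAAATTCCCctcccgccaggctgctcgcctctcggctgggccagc

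The κB consensus occurred in 8 of the 13 windows, which belonged to 7 of the 8 members. It was held by 5.91% of all 35116 windows listed, and 7.09% of all 27305 genes had at least 1 such window. A second form, GGG and TTTCC with any 2 bases between them, searched on both strands as well, was also held by 8 of the 13 windows, against 1.91% of all windows. In the members' windows every match of the second form is a match of the consensus too, so the searches overlap. In TNFAIP3 the matches GGGACTTTCC and GGGGATTTCC, on the other strand, began at -67 and -55, counted from the start. BIRC3 had GGGGATTTCC and GGGGAACTCC on the other strand, from -199 and -135. In NFKBIA a single match, GGGAATTTCC, lay on the other strand, and in NFKB1 the same letters lay on the strand of the gene. For NFKB2 the first of 3 listed starts had no match, and those at the other starts included GGGGCTTTCC and GGGACTTTCC. Neither window of RELA held the consensus. A match describes these letters only, and binding was not measured.

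**Figure D1:**
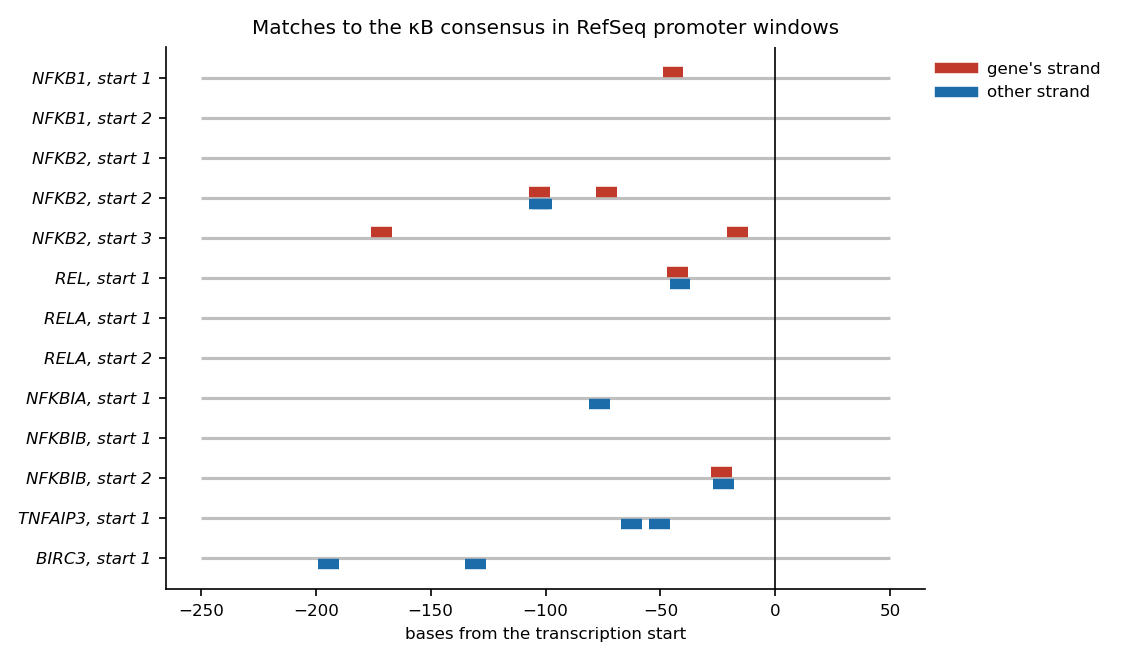
Positions of matches to the κB consensus in the 13 RefSeq promoter windows of 8 members. Each grey line is a window, the x axis gives bases from the transcription start, and red and blue blocks are matches on the strand of the gene and on the other strand. All matches lie before the start, and 5 windows, both of RELA among them, have none.

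All values below are log2 intensities after quantile normalization, and differences are those of group means in a linear model fitted to all 36204 names with limma, unless an alternative is named. Members with more than 1 probe were also read probe by probe in a second fit of the same model to all 50599 probes, whose p is adjusted over probes. A gene was called where its p adjusted over all names by the Benjamini-Yekutieli method (BY) was below 0.05 and its fold change above 1.2. The probes of all 10 members were well above background on all 18 arrays and none was saturated. Precision is limited by the number of arrays.

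After OXA, 7 of the 10 members were called higher in HT29, where 8.33% of all names were, and 6 were called higher in HTOXAR3, against 5.31% of all names. No member was called lower by limma in either line, against 7.62% and 4.94% of all names. At an unadjusted p below 0.05, 8 and 7 members differed in either direction, out of 11567 and 10258 names. The median log2 difference of the 10 members was 0.79 in HT29 and 0.71 in HTOXAR3, and that of all names was -0.01 and 0.01. After OXA plus Curcumin, 7 members in HT29 and 6 in HTOXAR3 were called higher than untreated, when 9.56% and 8.82% of all names were. With limma none was lower, against 9.02% and 8.64% of all names, and 7 members in each line had an unadjusted p below 0.05, out of 12624 and 12108 names. The members' median was 0.81 and 0.67, and that of all names -0.03 and -0.01. The shares of all names include names that were dim in every group. With only names well above background in a group, 6533 of 21872 were called in either direction after OXA in HT29. In HTOXAR3 4633 of 21871 were, and after the combination 7509 of 21871 in HT29 and 7030 of 21872 in HTOXAR3. The members called numbered 7, 6, 7 and 6 there too. The responses to OXA and to the combination share the untreated arrays of their line.

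Fewer members differed when Curcumin was added to OXA. In HT29 a single member, NFKB1, was called lower and none higher, where 2.39% and 3.14% of all names were, and in HTOXAR3 NFKB1 was called lower and NFKBIB higher, where 4.41% and 4.43% were. The call of NFKBIB holds for the probe used, and its other probe gave -0.12. With limma, 2 and 4 members had an unadjusted p below 0.05, out of 8049 and 9286 names. The members' median was -0.07 and 0.01, and that of all names -0.02 in either line. A count of 1 in 10 cannot be set apart from these shares. Between the untreated lines, NFKBIA and NFKBIE were called higher in HTOXAR3, with 6.26% of all names, and BIRC3 lower, with 5.28%. The members' median was 0.18, against -0.03 over all names. With only names well above background in a group, 4889 of 21872 were called for the untreated lines, and 4 members were. For the addition of Curcumin 2689 and 4026 of 21871 were, with 1 member in HT29 and 2 in HTOXAR3.

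**Figure D2:**
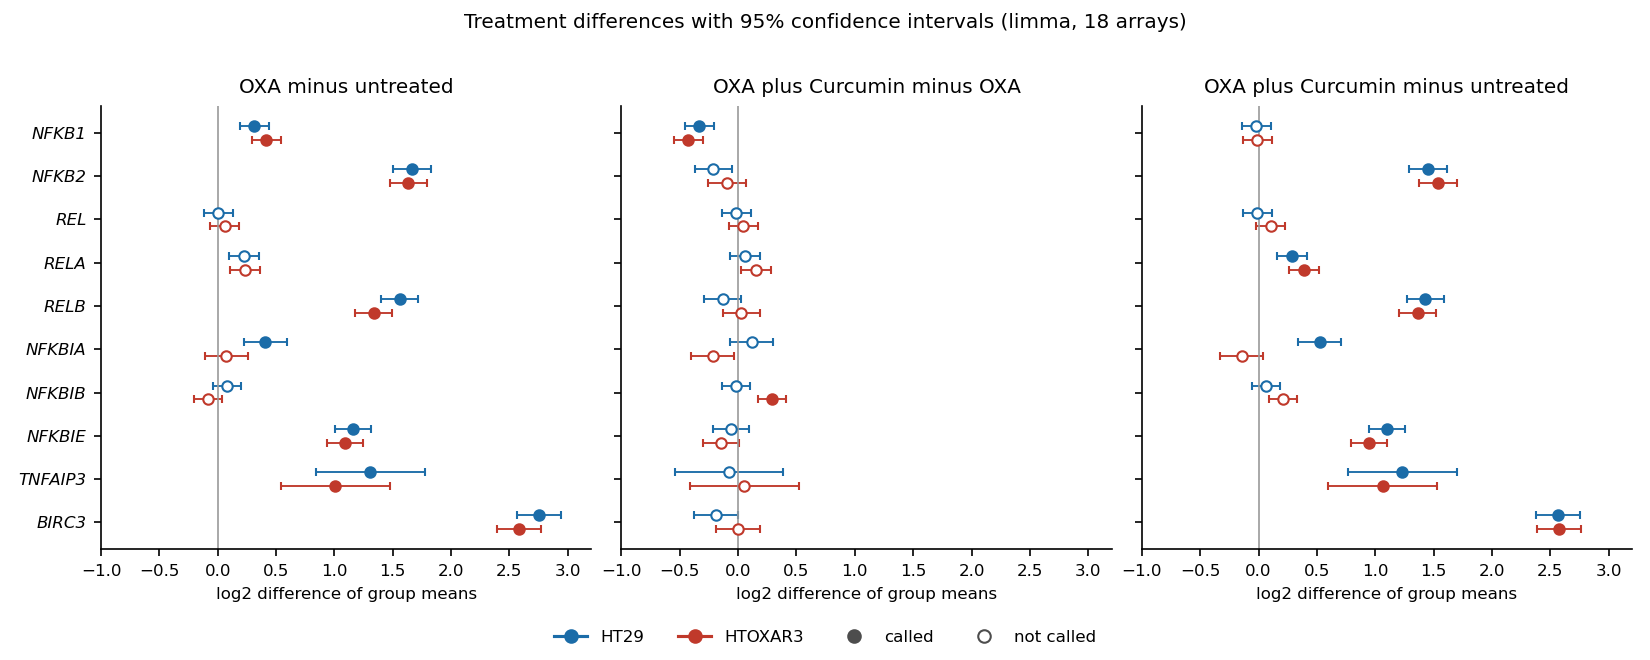
Log2 differences between treatments for each member, in HT29 (blue) and HTOXAR3 (red), with 95% confidence intervals of the limma model. Filled points were called. BIRC3, NFKB2, RELB, NFKBIE and TNFAIP3 lie to the right of 0 against untreated cells in both lines, and NFKB1 moves right after OXA and returns to 0 after OXA plus Curcumin.

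Among the subunits, NFKB2 and RELB rose most. NFKB2 encodes the precursor that is processed in the non-canonical branch. Its log2 intensity was 7.51, 7.42 and 7.52 on the arrays of untreated HT29, 9.15, 9.11 and 9.18 after OXA, and 8.94, 8.89 and 8.97 after OXA plus Curcumin. In HTOXAR3 it was 7.70, 7.83 and 7.77 untreated, 9.34, 9.47 and 9.40 after OXA, and 9.12, 9.40 and 9.40 after the combination. All treated arrays of a line lay above all its untreated arrays, and in HTOXAR3 the ranges after OXA and after the combination overlapped. The rise after OXA was 1.67 in HT29 (SE 0.07, BY adjusted p = 1.63e-08) and 1.63 in HTOXAR3 (SE 0.07, BY adjusted p = 1.68e-07). After the combination it was 1.45 and 1.54. The addition of Curcumin to OXA changed NFKB2 by -0.21 in HT29, with each combination array below each OXA array, but this did not pass the adjusted test (BY adjusted p = 0.969, interval -0.37 to -0.05).

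RELB, the usual partner of the processed NFKB2 product, stood at 12.61, 12.49 and 12.58 in untreated HT29, at 14.16, 14.07 and 14.12 after OXA and at 14.10, 13.94 and 13.93 after OXA plus Curcumin. In HTOXAR3 the values were 12.84, 12.78 and 12.87, then 14.19, 14.29 and 14.02, and after the combination 14.17, 14.15 and 14.26. The treated and untreated arrays did not overlap in either line, and in the order of the means each treated group overlapped with the next. OXA raised RELB by 1.56 in HT29 (SE 0.07, BY adjusted p = 2.57e-08) and by 1.34 in HTOXAR3 (SE 0.07, BY adjusted p = 4.97e-07). The difference between these responses was -0.22, with a 95% confidence interval from -0.45 to 0.00 (BY adjusted p = 1). Before treatment NFKB2 and RELB were higher in HTOXAR3 than in HT29 by 0.29 and 0.27, with no overlap of the arrays, and neither was called (BY adjusted p = 0.146 and 0.192). NFKB2 passed without replicate 1 of HTOXAR3 after the combination (0.29, BY adjusted p = 0.0296), and with only names well above background in a group (BY adjusted p = 0.047).

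NFKB1, the precursor of the canonical partner of RELA, took another course. It was measured by 10 replicate spots per array, whose SD within an array had a median of 0.16. Its values were 11.12, 11.19 and 11.02 in untreated HT29, 11.36, 11.46 and 11.44 after OXA and 11.04, 11.07 and 11.15 after the combination. HTOXAR3 gave 11.18, 11.20 and 11.20 untreated, 11.60, 11.58 and 11.65 after OXA and 11.15, 11.24 and 11.16 after the combination. In both lines the OXA arrays lay above all others of the line, and the combination overlapped with untreated cells. OXA raised NFKB1 by 0.31 in HT29 (SE 0.06, BY adjusted p = 0.00988) and by 0.41 in HTOXAR3 (SE 0.06, BY adjusted p = 0.00165). It fell with the addition of Curcumin by 0.33 (BY adjusted p = 0.0166) and by 0.43 (BY adjusted p = 0.00156). These comparisons share the OXA arrays, which enter them with opposite signs. Against untreated cells the combination differed by -0.02 in HT29 (interval -0.15 to 0.10) and by -0.01 in HTOXAR3 (interval -0.14 to 0.11).

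The calls of NFKB1 in HT29 were less stable than those in HTOXAR3. The call after OXA was lost without replicate 3 of untreated HT29 (0.27) or replicate 2 of HT29 after OXA (0.29). The call for the addition of Curcumin was lost without replicate 1 or 2 of the combination (-0.31 and -0.32) or replicate 2 or 3 of OXA (-0.31 and -0.32). When only the arrays of the compared groups entered the fit, no call of NFKB1 was kept, with adjusted p between 0.133 and 1.

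RELA, the subunit with the main activation domain of the canonical dimer, showed smaller differences. In HT29 its probe with 10 spots gave 11.21, 11.22 and 11.40 untreated, 11.49, 11.50 and 11.53 after OXA and 11.51, 11.59 and 11.59 after the combination. In HTOXAR3 the values were 11.05, 11.15 and 11.03, then 11.32, 11.32 and 11.28, then 11.45, 11.45 and 11.48. Treated arrays lay above the untreated ones of their line throughout. Before treatment RELA was lower in HTOXAR3, with a log2 difference from HT29 of -0.20 and no overlap. This was not called (BY adjusted p = 0.287), and the other RELA probe gave -0.23. The difference after OXA was 0.23 in each line and was not called (BY adjusted p = 0.117 in HT29 and 0.142 in HTOXAR3), but passed in HT29 without its untreated replicate 3 (0.29, BY adjusted p = 0.0175). In HT29 the other probe gave 0.14 after OXA (BY adjusted p = 1 in the fit to all probes), and the used probe gave 0.28 and 0.12 within slides. After OXA plus Curcumin RELA rose by 0.29 in HT29 (SE 0.06, BY adjusted p = 0.0207) and by 0.39 in HTOXAR3 (SE 0.06, BY adjusted p = 0.00185). In the fit to all probes the other RELA probe gave 0.28 and 0.45, the first of which was not called (BY adjusted p = 0.055), while the used probe had a BY adjusted p of 0.0282 for HT29 there. The call in HT29 was also lost without replicate 1 or 2 of untreated HT29 (0.25 and 0.26) or replicate 2 or 3 of its combination (0.27 each), with slide as a block (0.27, BY adjusted p = 0.0625) and under both other scalings (0.24 and 0.26), and within slides the difference was 0.33 and 0.18.

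REL, a subunit best known from lymphoid cells, ran from 8.58 to 8.79 over all 18 arrays, and neighbouring groups overlapped throughout the order of their means. Its largest difference in a treatment was 0.10, for the combination in HTOXAR3 (interval -0.02 to 0.23, BY adjusted p = 1). In that comparison every treated array was above the untreated ones, and REL was not called in any comparison with limma.

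**Figure D3:**
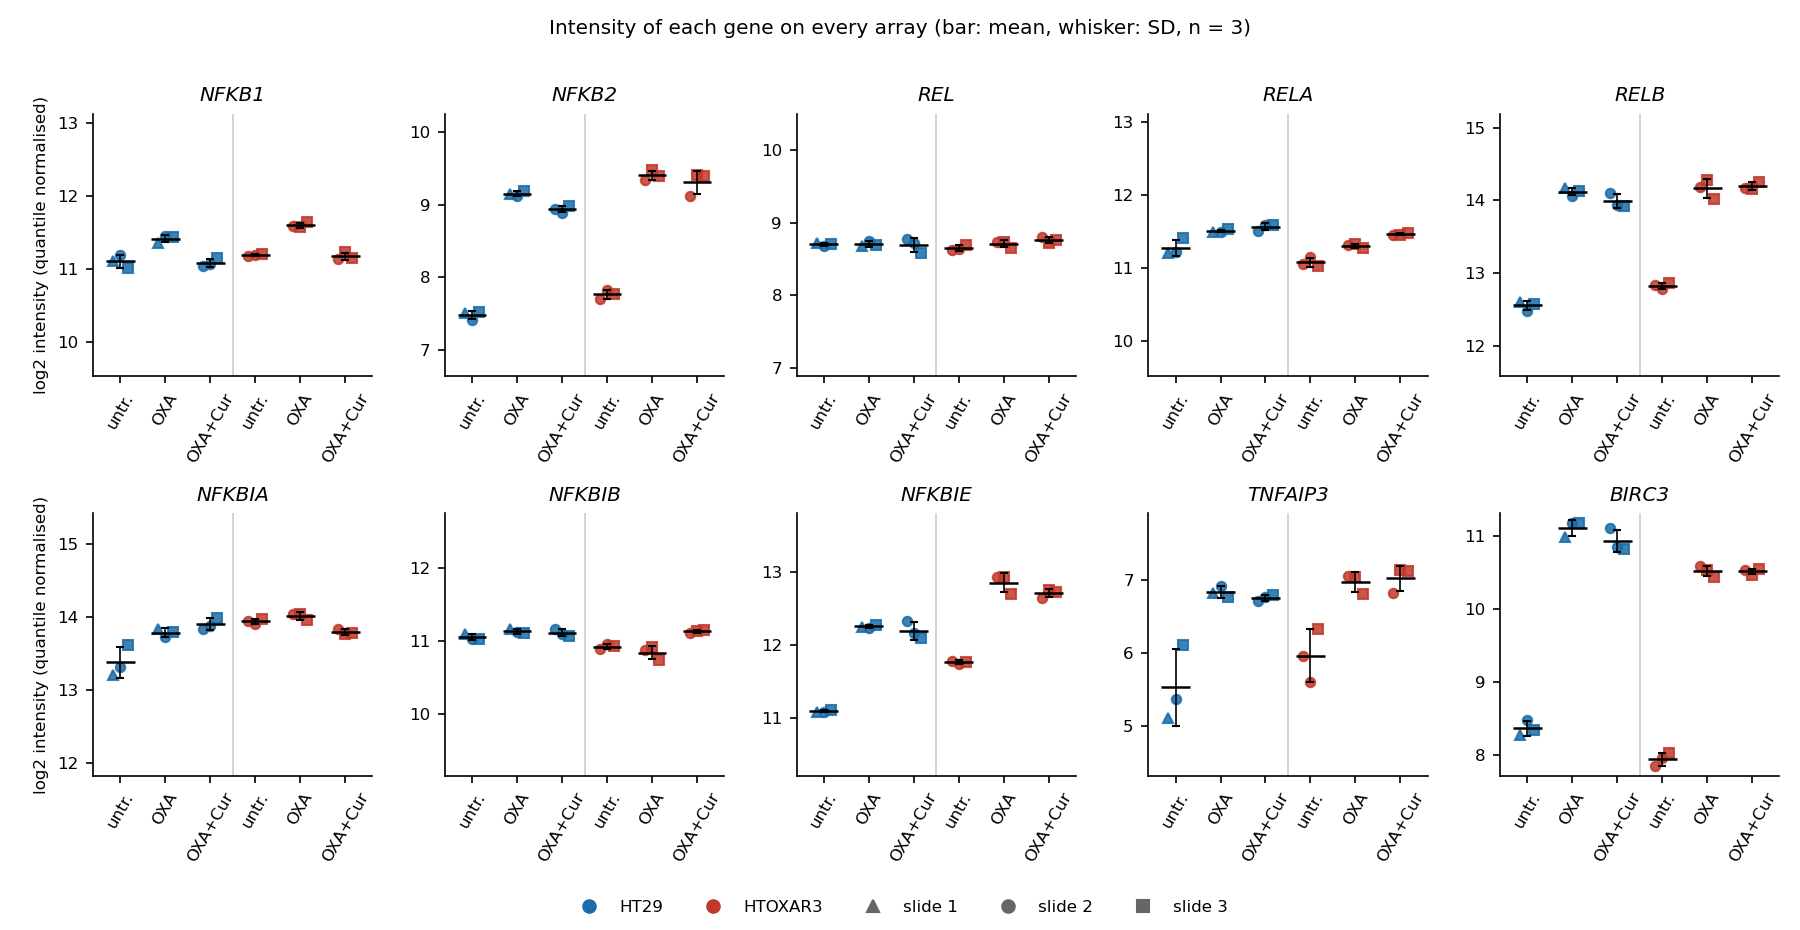
Log2 intensity of each member on every array, in HT29 (blue) and HTOXAR3 (red), untreated (untr.), after OXA and after OXA plus Curcumin (OXA+Cur). Symbols give the slide, black bars the mean and whiskers the SD of 3 arrays, and every panel spans the same number of log2 units. BIRC3 spans 3.34 units and REL 0.21, and the untreated arrays of TNFAIP3 are the most scattered.

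Of the inhibitors, NFKBIE, which encodes IκBε, responded most. It stood at 11.09, 11.08 and 11.11 in untreated HT29, at 12.25, 12.23 and 12.28 after OXA and at 12.32, 12.16 and 12.10 after the combination. In HTOXAR3 the values were 11.79, 11.74 and 11.77, then 12.93, 12.93 and 12.71, then 12.65, 12.76 and 12.73. Untreated HT29 was lowest, untreated HTOXAR3 came next, and every treated array of a line was above its untreated ones. OXA raised NFKBIE by 1.16 in HT29 (SE 0.07, BY adjusted p = 3.61e-07) and by 1.09 in HTOXAR3 (SE 0.07, BY adjusted p = 2.52e-06). The combination raised it by 1.10 and by 0.95. The untreated lines differed by 0.67 (SE 0.07, BY adjusted p = 9.18e-05), and the responses to OXA differed between the lines by -0.07 (interval -0.29 to 0.15).

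NFKBIA encodes IκBα, the classical inhibitor that NF-κB induces in a feedback loop. Its values in untreated HT29, 13.20, 13.32 and 13.61, were the most variable of its groups (SD 0.21, n = 3). They were 13.84, 13.73 and 13.79 after OXA and 13.84, 13.88 and 13.99 after the combination. HTOXAR3 gave 13.95, 13.90 and 13.97 untreated, 14.05, 14.04 and 13.96 after OXA and 13.84, 13.76 and 13.79 after the combination. In HT29 every treated array was above the untreated ones, whereas in HTOXAR3 OXA overlapped with untreated and each combination array was below both. Before treatment NFKBIA was higher in HTOXAR3 than in HT29 by 0.56 (SE 0.09, BY adjusted p = 0.00277), and within slides by 0.61 and 0.36. In HT29 it rose by 0.41 after OXA (BY adjusted p = 0.0271) and by 0.52 after the combination (BY adjusted p = 0.0032). In HTOXAR3 the differences were 0.08 and -0.14, and neither was called (BY adjusted p = 1 for each).

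The order of NFKBIA from the highest mean was HTOXAR3 after OXA, untreated HTOXAR3, HT29 after the combination, HTOXAR3 after the combination, HT29 after OXA and untreated HT29. The ranges of neighbours overlapped except at the step from the third to the fourth group and at the last step. The response to the combination differed between the lines by -0.67 (interval -0.93 to -0.40), which was not called with BY (adjusted p = 0.0903) but was without replicate 3 of untreated HT29 (-0.79, BY adjusted p = 0.00659). The call after OXA in HT29 was lost without replicate 1 or 2 of untreated HT29 (0.32 and 0.38) and without replicate 1, 2 or 3 of HT29 after OXA (0.38, 0.44 and 0.41). It was also lost with scaling to the 75th percentile (0.34, BY adjusted p = 0.117) and with the processed intensity (0.34, BY adjusted p = 0.144). Within the slides that held all groups the difference was 0.41 on one and 0.18 on the other.

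NFKBIB, which encodes IκBβ, depended on the probe. The brighter probe, chr19:39398611-39398670 on GRCh37, is assigned by the array's annotation to a non-coding transcript record, and the dimmer one, chr19:39397888-39397947, to a coding one. The brighter probe gave 10.89, 10.96 and 10.93 in untreated HTOXAR3, 10.88, 10.91 and 10.74 after OXA and 11.11, 11.14 and 11.15 after the combination. On the dimmer probe the same arrays read 9.83, 9.97 and 9.94, then 10.42, 10.53 and 10.35, then 10.27, 10.32 and 10.34. The OXA arrays of HTOXAR3 thus overlapped with untreated on one probe and were all above them on the other. With the brighter probe the addition of Curcumin raised NFKBIB by 0.29 in HTOXAR3 (SE 0.06, BY adjusted p = 0.0257), and no other comparison was called. In the fit to all probes, where the same value of the brighter probe had a BY adjusted p of 0.0361, the dimmer one gave -0.12 (BY adjusted p = 1). OXA raised the dimmer probe by 0.52 in HTOXAR3 (BY adjusted p = 4.88e-04), where the brighter one gave -0.08. The untreated lines differed by -0.13 on the brighter probe and by 0.50 on the dimmer one (BY adjusted p = 4.39e-04). No direction is therefore given for the gene in these 3 comparisons, and the mean of both probes gave 0.08 for the addition of Curcumin in HTOXAR3. The probes agreed in direction for OXA in HT29, where the brighter one rose by 0.08 and was not called and the dimmer one rose by 0.28 (BY adjusted p = 0.0389). They also agreed for the combination against untreated HTOXAR3. There the brighter probe rose by 0.21 and was not called (BY adjusted p = 0.186 in the fit to all probes), the dimmer one rose by 0.40 (BY adjusted p = 0.00229) and the mean of both by 0.30 (BY adjusted p = 0.00856). The call of the brighter probe for the addition of Curcumin was lost without replicate 1, 2 or 3 of HTOXAR3 after the combination (0.30, 0.29 and 0.28) and without replicate 1 or 3 of HTOXAR3 after OXA (0.31 and 0.24).

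**Figure D4:**
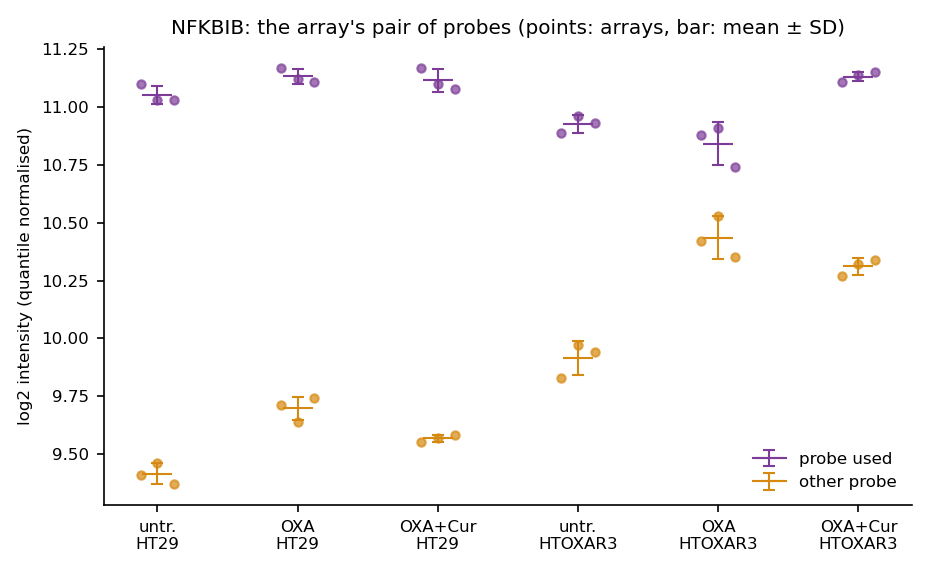
Log2 intensity of NFKBIB on its 2 probes in each of the 6 groups. Points are arrays, and bars and whiskers are the mean and SD of 3 arrays. The probe not used for the gene rises from 9.91 to 10.43 in HTOXAR3 after OXA, and the probe used stands at 10.93 and 10.84.

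BIRC3, a ubiquitin ligase of the inhibitor-of-apoptosis family that acts at TNF receptors and restrains MAP3K14, showed the largest changes of the 10 members. In untreated HT29 it stood at 8.27, 8.47 and 8.34, after OXA at 10.98, 11.17 and 11.18 and after the combination at 11.10, 10.85 and 10.82. In HTOXAR3 it was 7.84, 7.95 and 8.02 untreated, 10.58, 10.53 and 10.44 after OXA and 10.53, 10.47 and 10.54 after the combination. The treated arrays were far above the untreated ones, and those of HT29 were above those of HTOXAR3. OXA raised BIRC3 by 2.75 in HT29, which is 6.73-fold (SE 0.09, BY adjusted p = 7.42e-10), and by 2.58 in HTOXAR3, which is 5.98-fold (SE 0.09, BY adjusted p = 1.11e-08). After the combination the rises were 2.56 and 2.58. The difference between the lines in the response to OXA was -0.17 (interval -0.44 to 0.09).

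Before treatment BIRC3 was lower in HTOXAR3, with a log2 difference from HT29 of -0.43 (SE 0.09, BY adjusted p = 0.0292), with no overlap. That call lay near the threshold. It was lost without replicate 2 or 3 of untreated HT29 (-0.37 and -0.43) or replicate 1 or 2 of untreated HTOXAR3 (-0.38 and -0.43), and under both other scalings (-0.40 and -0.38). With replicate number as a block it was lost as well (-0.43, BY adjusted p = 0.0649). Within slides the difference was -0.58 and -0.32.

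TNFAIP3 encodes a ubiquitin-editing enzyme that shuts the pathway down after its activation. In untreated HT29 it was read at 5.11, 5.38 and 6.11, after OXA at 6.83, 6.92 and 6.77 and after the combination at 6.72, 6.77 and 6.80. HTOXAR3 gave 5.97, 5.61 and 6.33 untreated, 7.07, 7.05 and 6.81 after OXA and 6.83, 7.14 and 7.12 after the combination. Treated and untreated arrays did not overlap, but the untreated groups were scattered, with an SD of 0.52 in HT29 and 0.36 in HTOXAR3 (n = 3 each). In both lines the highest untreated array lay on slide 3. Its probe was the dimmest of the 12 probes of the members, with a mean of 6.52 over all arrays. The median of all names was 5.53 to 5.54 on the untreated HT29 arrays. OXA raised TNFAIP3 by 1.31 in HT29 (SE 0.22, BY adjusted p = 0.00379) and by 1.01 in HTOXAR3 (SE 0.22, BY adjusted p = 0.0441). Within slides the rise was 1.55 and 0.66 in HT29, and 1.28 and 0.60 in HTOXAR3. The call in HTOXAR3 was lost in 15 of the 18 fits that left out 1 array, where the difference ran from 0.83 (without replicate 2 of untreated HTOXAR3) to 1.09 (without replicate 3 of HTOXAR3 after OXA). It was kept without replicate 1 or 3 of untreated HT29 and without replicate 3 of untreated HTOXAR3. With slide as a block it was 0.94 (BY adjusted p = 0.0516). After the combination TNFAIP3 rose by 1.23 in HT29 (BY adjusted p = 0.00546) and by 1.06 in HTOXAR3 (BY adjusted p = 0.0188), and the latter call was lost without replicate 1 or 2 of untreated HTOXAR3 (1.06 and 0.89) or replicate 2 or 3 of its combination (1.01 and 1.02). Within slides the rise after the combination was 1.37 and 0.68 in HT29, and 1.05 and 0.80 in HTOXAR3.

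The test of the difference between the lines called none of the 10 members in any of the 3 responses. Of all names, limma with BY called 1.01% for OXA, 0.135% for the addition of Curcumin and 0.856% for the combination. At an unadjusted p below 0.05 there were 1, 2 and 1 members, out of 4944, 3526 and 5202 names. These tests do not show that the members responded alike in both lines, and the doses of OXA differed.

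The arrays lay on 3 slides, of which slide 1 held an untreated and an OXA array of HT29 alone and the others all 6 groups. All 32 called differences of the members had the same direction within both of the latter slides. In 29 of them the fold change also exceeded 1.2 on each slide. The calls were made with the arrays of both slides included, so this agreement is not an independent check. With slide as a block 30 of the 32 calls were kept, the exceptions being the RELA and TNFAIP3 values given above. When only the arrays of the compared groups entered the fit, where fewer arrays give the spread, 15 of the 32 calls were lost. These were all calls of NFKB1, RELA, NFKBIA, NFKBIB and TNFAIP3 and that of BIRC3 between the untreated lines.

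Other genes of the pathway were taken in 6 lists with 67 genes. After OXA 13 of the 67 rose and 9 fell in HT29, against 8.33% and 7.62% of all names, and 11 rose and 4 fell in HTOXAR3, against 5.31% and 4.94%. The median log2 difference of the 67 was 0.06 and 0.09, against -0.01 and 0.01 over all names. After the combination 17 rose and 8 fell in HT29, when 9.56% and 9.02% of all names did, and 20 rose and 5 fell in HTOXAR3, when 8.82% and 8.64% did, with medians of 0.10 and 0.11 against -0.03 and -0.01. The addition of Curcumin raised 5 and lowered 1 in HT29, against 3.14% and 2.39% of all names, and raised 8 and lowered 1 in HTOXAR3, against 4.43% and 4.41%. Between the untreated lines 3 were higher and 11 lower in HTOXAR3, against 6.26% and 5.28%. A count of 1 in a list of this size or smaller cannot be set apart from such shares. Here and for the lists below, the shares of all names include names that were dim in every group. With only names well above background in a group, 6533 of 21872 were called in either direction after OXA in HT29. In HTOXAR3 4633 of 21871 were, and after the combination 7509 of 21871 in HT29 and 7030 of 21872 in HTOXAR3. Whether the counts of the 67 exceed those of such names was not tested.

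Of 11 genes of the IKK complex and its upstream kinases, 1 rose and 1 fell after OXA in each line, where 8.33% and 7.62% of all names did in HT29 and 5.31% and 4.94% in HTOXAR3. MAP3K14, the kinase that starts the non-canonical branch, rose by 1.46 in HT29 (SE 0.08, BY adjusted p = 1.33e-07) and by 1.33 in HTOXAR3 (SE 0.08, BY adjusted p = 1.51e-06). MAP3K14 also differed between the untreated lines, being higher in HTOXAR3 by 0.82. MAP3K8, which acts downstream of the NFKB1 precursor, fell by 0.41 and by 0.48. After the combination MAP3K14 rose by 1.48 and by 1.62, and IKBKG, the regulatory subunit of the IKK complex, by 0.28 and by 0.27. Between the untreated lines 1 of the 11 was higher and 2 were lower in HTOXAR3, against 6.26% and 5.28% of all names. The lower ones were MAP3K8 (-0.48) and CHUK, a catalytic subunit of that complex (-0.37).

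Among 26 receptors and adaptors, 5 rose and 3 fell after OXA in HT29, against 8.33% and 7.62% of all names, and 5 rose and 1 fell in HTOXAR3, against 5.31% and 4.94%. TNFRSF12A, the receptor for the cytokine TWEAK, rose by 0.78 and 0.73, and IRAK2, a kinase of interleukin and Toll-like receptor signalling, by 1.05 and 0.49. TLR4, the receptor for lipopolysaccharide, fell by 1.85 in HT29 given OXA and fell by 0.50 in HTOXAR3 given OXA. This response differed between the lines by 1.35 (SE 0.13, BY adjusted p = 4.41e-04). TNFRSF11A, the receptor RANK, fell after OXA in HT29 by 1.21. TRADD, the adaptor of the TNF receptor, rose with the addition of Curcumin by 0.42 and 0.46.

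In the list of 14 negative regulators outside the 10 members, 4 rose and 2 fell after OXA in HT29, against 8.33% and 7.62% of all names, and 3 rose and none fell in HTOXAR3, against 5.31% and 4.94%. The addition of Curcumin raised 4 in HT29 and 5 in HTOXAR3, against 3.14% and 4.43% of all names, and lowered none. ZFP36, which destabilises cytokine transcripts, rose in this comparison by 0.89 and 0.79, and TAX1BP1, a partner of TNFAIP3, by 0.38 and 0.43. After OXA PDLIM2, a ligase for RELA, rose by 0.97 and 0.93, TAX1BP1 by 0.56 and 0.39, and TNIP1, another partner of TNFAIP3, by 0.53 and 0.33. COMMD1, which promotes the turnover of RELA, fell after OXA in HT29 by 0.66. Of the 3 atypical IκB genes, NFKBIZ rose after OXA by 0.94 in HT29 and by 0.46 in HTOXAR3. Of 7 ubiquitin genes, BIRC2, the paralog of BIRC3, rose by 0.39 and 0.40 and UBE2N fell by 0.70 and 0.56. Of the 6 genes of the genotoxic route from DNA damage to NF-κB, 1 rose and 2 fell after OXA in HT29, against 8.33% and 7.62% of all names, and 1 fell in HTOXAR3, against 4.94%. PIDD1 rose by 0.57. XIAP fell in both lines, by 0.42 and 0.34, and ATM, the damage-sensing kinase, fell in HT29 by 0.31.

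Before treatment the resistant subline had 16 of 37 NF-κB target genes called above HT29 and 2 below it, against 6.26% and 5.28% of all names, and 19 were not called. The median was 0.32, against -0.03 over all names. Of the 37, 29 were well above background on all arrays. Among names well above background in a group, 4889 of 21872 were called in this comparison. The list was chosen with earlier results of these data known. It holds CXCL8, CXCL1 and CXCL2, which the paper picked from these arrays as higher in untreated HTOXAR3, so the counts are description only. The cyclooxygenase gene PTGS2 was higher by 3.33, the cytokine genes IL1B and CSF2 by 2.74 and 2.43 and the chemokine gene CXCL8 by 2.63. Of the same 37, 20 rose and 2 fell after OXA in HT29, with a median of 0.49 and against 8.33% and 7.62% of all names, and 13 rose and 3 fell in HTOXAR3, with a median of 0.23 and against 5.31% and 4.94%. After the combination 19 rose and 2 fell in HT29, against 9.56% and 9.02% of all names, and 14 rose and 4 fell in HTOXAR3, against 8.82% and 8.64%, with medians of 0.50 and 0.10. The addition of Curcumin raised 4 and lowered 5 in HT29, against 3.14% and 2.39% of all names, and raised 5 and lowered 9 in HTOXAR3, against 4.43% and 4.41%. ICAM1, an adhesion molecule, rose after OXA by 1.99 and 1.96 and after the combination by 1.87 and 2.20. Among those that fell in HTOXAR3, the adhesion receptor gene CD44 fell by 1.58 and PTGS2 by 1.39 after the combination, and the chemokine gene CXCL2 fell by 0.82 after OXA. PLAU, the urokinase, rose after OXA by 2.77 in HT29 and 2.00 in HTOXAR3. It fell with the addition of Curcumin by 1.24 and 0.99. The responses to OXA differed between the lines for 4 target genes, against 1.01% of all names, all with the smaller value in HTOXAR3, namely CXCL1 (-1.53), CXCL2 (-1.38), PLAU (-0.77) and TNFAIP2 (-0.72). The responses to the combination differed for 6, against 0.856% of all names, again with the smaller value in HTOXAR3, among them CXCL1 (-2.10) and CXCL2 (-2.01). The untreated arrays enter both these differences between responses and the difference between the untreated lines, with opposite signs. The doses of OXA also differed between the lines, and their part was not tested.

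**Figure D5:**
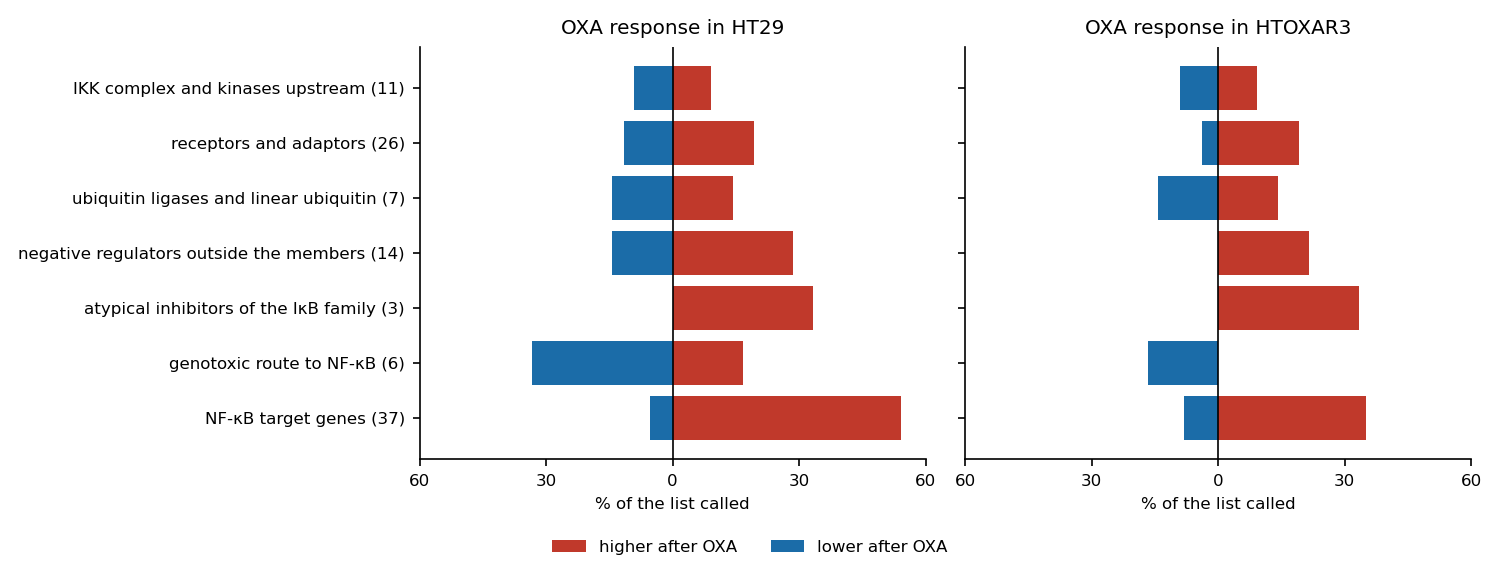
Share of each gene list called higher (red, to the right) or lower (blue, to the left) after OXA, in HT29 and HTOXAR3, with the number of genes on the array in brackets. The bars start at 0. The NF-κB target genes have the longest red bars, with 20 and 13 of 37 genes.

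The names whose log2 values were most like those of each member over the 18 arrays were sought among the other 17406 names well above background on all of them. The arrays fall into 6 groups, so that these correlations mostly reflect differences between groups. BIRC3 was most like ICAM1 (r = 0.992), TNFRSF12A (0.987) and AJUBA (0.987). NFKB2 was most like RELB (0.988), FHL2 (0.985) and LOC100507507 (0.984), and RELB like APBA3 (0.989), PHLDB3 (0.989) and NFKB2. For NFKBIE the leading names were TSC22D1 (0.992), SAMD4A (0.985) and LRWD1 (0.985), and for TNFAIP3 they were KLHL5 (0.947), VCL (0.945) and CDC26 (0.943). NFKBIA was most like TM7SF2 (0.933), CXCL8 (0.911) and OCIAD2 (0.899), and RELA like MYH14 (0.969), TICAM1 (0.959) and TEP1 (0.955). NFKB1 was followed by RHOBTB2 (0.949), RFC4 (0.949) and LOC101060179 (0.948), and the used probe of NFKBIB by ZNF283 (0.919), TPM3P9 (0.909) and TNFAIP1 (0.889). REL had the lowest leading value, with ALKBH8 (0.723) and PPM1B (0.705).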

How the data were processed

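The authors deposited scanner output of 18 Cy3-labelled arrays, read with Feature Extraction 10.7.3.1, in which spot and local background intensity are linear and not normalized between arrays. The submitters' processing notes name limma. Mean intensity was corrected with normexp (offset 0) and quantile normalized in R 4.3.3 with limma 3.58.1 and data.table version 1.17.8. Control spots and flagged outlier spots were left out, spots of a probe were averaged, and the probe brightest on average stood for each of 36204 names. A model with 6 group terms was fitted with lmFit and eBayes to all arrays. P-values measure the spread between these arrays. Same-numbered arrays deviated together for OXA in HT29 (r from 0.118 to 0.241) and where Curcumin was added to OXA in HTOXAR3 (0.108 to 0.194), and there they shared a slide. Not every pair did so elsewhere. The labels describe no pairing. Named were the members, genes out of the up to 4 called per list and comparison with the largest change among those well above background, and the 3 names most like each member, of which 1 for REL is not reported here. Members and lists were chosen with earlier results of these data known. The model was tested on simulated arrays, and the outcome is not given here. Promoters were searched in Python 3.11.15, and figures drawn with pandas 2.3.3 and matplotlib 3.10.9. Alternatives covered background offset, scaling, probes, dim names, adjustment, fold minimum, blocks, the arrays fitted and each array left out. A deposited table of log2 values without gene names was not used.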

Additional observations from a re-analysis of the deposited data

Results flagged for a closer look

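NFKBIA stood out because its arrays after OXA plus Curcumin lay on opposite sides of the untreated ones in the cell lines. It was picked on the same values that are tested below, so those tests are not independent of the choice. How many of all names show such a pattern is not given here. Every combination array of HT29 was above every untreated array of HT29, and every combination array of HTOXAR3 was below every untreated array of HTOXAR3. The rise in HT29 was called (0.52, BY adjusted p = 0.0032), but not when only the arrays of the groups compared were fitted (BY adjusted p = 0.415) or with a fold minimum of 2. The difference of -0.14 in HTOXAR3 was not (interval -0.33 to 0.04, BY adjusted p = 1), so a fall there is not shown. The difference between the responses was -0.67 (SE 0.12). It was tested as an interaction and did not pass with limma and BY (adjusted p = 0.0903), whereas with Benjamini-Hochberg adjustment (BH) it did (adjusted p = 0.00815). The untreated lines differed by 0.56, and the untreated arrays enter both that value and the interaction, with opposite signs. The part of the dose of OXA was not tested. Without replicate 3 of untreated HT29 the difference between the responses was -0.79 and passed with BY (adjusted p = 0.00659). It did not pass with slide as a block (BY adjusted p = 0.152) or replicate number as a block (0.130). Over the fits without 1 array it ran from -0.79 to -0.58, with a BY adjusted p up to 0.286.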

How the results depend on the processing

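Of the 32 called differences of the members, 24 kept their call under every alternative other than a fold minimum of 2 and fits of only the arrays compared. These included all calls of NFKB2, RELB and NFKBIE and those of BIRC3 after treatment. Of the called directions, that of NFKBIB where Curcumin was added in HTOXAR3 turned, to -0.12 with its other probe, and no other did. Uncalled differences of NFKBIB turned with that probe too, to 0.50 for the untreated lines and 0.52 for OXA in HTOXAR3. Its line difference in the OXA response turned from -0.16 to 0.24, and that in the addition of Curcumin moved from 0.31 to 0.005. Uncalled differences of other members turned in some fits, such as TNFAIP3 where Curcumin was added in HTOXAR3 (0.05 in the main fit and -0.23 within slide 2). BH adjustment raised the members called between the untreated lines from 3 to 5. The line difference in the combination response called 1 member in place of 0 with BH, with a normexp offset of 50 and with only names well above background in a group. A fold minimum of 2 left 0 members for the untreated lines and 0 where Curcumin was added, in either line. The mean of all probes left 1 for the addition of Curcumin in HTOXAR3 and raised the members called for the combination there from 6 to 7, with NFKBIB gained. With only the arrays compared, where fewer arrays give the spread, 1 member was called for the untreated lines, 4 for OXA in HT29, 4 for the combination in HT29 and 0 where Curcumin was added, in either line. With 1 array left out, the members called ranged from 0 to 1 for the addition of Curcumin in HT29, from 1 to 2 in HTOXAR3 and from 0 to 1 for the line difference in the combination response. With replicate number as a block, 5 members were called for OXA in HTOXAR3 and 2 for the untreated lines, TNFAIP3 (BY adjusted p = 0.0517) and BIRC3 (0.0649) losing their calls, and no other call of a member changed. Where not stated otherwise, the cause was not tested. With the processed intensity the median of all names moved to -0.19 for OXA and for the combination in HTOXAR3 and to -0.15 for the combination in HT29. With normexp values scaled to the 75th percentile it moved to -0.17 for the combination in HTOXAR3, to -0.16 for the combination in HT29 and to -0.14 for Curcumin added in HTOXAR3. No called direction of a member turned with either. Of all names, 5774 were called for OXA in HT29 (1179 to 7944 over the alternatives) and 3709 in HTOXAR3 (468 to 5998), and 6724 (1369 to 9037) and 6322 (1194 to 8495) for the combination. Where Curcumin was added these were 2002 (16 to 3702) and 3198 (223 to 5125), for the untreated lines 4177 (1013 to 6146), and for the line differences 364 (178 to 1087), 49 (5 to 323) and 310 (85 to 1244). The deposited table of log2 values could not be run for the members because its lines carry no names.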
